A study of Bos taurus with 4 samples.

Results

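The proteins of the cytosolic small (40S) ribosomal subunit were represented on the array by 32 gene symbols, chosen as every non-control probe whose symbol is RPSA or RPS followed by a number and at most the letter A, X or L. S6 kinases carry other symbols and were not included. These symbols covered 117 of the 51282 probes and 121 spots, against 32429 gene names on the whole array. Of the 32 genes, 31 encode small-subunit proteins, and RPS27L is a paralogue of RPS27. All 32 symbols are in the current RefSeq gene table.

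The small subunit binds the messenger RNA and pairs its codons with transfer RNA during initiation and elongation. Its proteins coat the ribosomal RNA of a head and of a body with a platform, and each is normally needed in 1 copy per subunit. Transcription and cytosolic translation are largely shut down in mature sperm, so the transcripts for these proteins are usually regarded as left over from spermatogenesis or carried to the egg.

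RNA came from sperm of Murrah buffalo breeding bulls that had been graded by field conception rate, with no treatment. The high-fertile and low-fertile groups each consisted of 2 pools, and each pool held equal amounts of sperm RNA from 2 bulls. The sperm had been selected on a Percoll gradient. The sources used here give no age for the animals and do not tie bulls to pools. The organism field of the labels names cattle, and buffalo RNA was hybridized to 60-base bovine probes. Pools are the replicates here, so a p-value rests on the spread between 2 pools of each group. The model used, limma, shares this spread over all tested probes. The SE and p-value of a gene are therefore not those of its own pools alone. High-fertile pools occupied 1 row of the slide and low-fertile pools the other, so slide position and fertility group cannot be told apart.

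The number of arrays limits precision, since an exact two-sided permutation test of 2 pools against 2 cannot go below p = 0.333. The 75th percentile of the processed signal, on which each array was centred, lay between 32.7 and 37.1. Between 23228 and 25642 probes were well above background on the first 3 arrays, but 13033 on that of low-fertile pool 2, where the SD of the negative controls was 109 against 3.95 to 24.8 on the other arrays. Of 22 sperm marker genes, 10 could be tested, and 2 of them, PRM1 (protamine 1) and SPATA3, were higher in the low-fertile pools, in a fit that called 9.6% of all genes higher. The brightest probe was well above background on no array for 7 of the 22, AKAP3, AKAP4, SMCP and LDHC among them. Among 14 leukocyte markers, 11 could be tested and 1, PTPRC, was higher in the low-fertile pools (log2 difference 0.78), a share near that of all genes. The summed processed signal of that list was 8553 and 8768 on the high-fertile and 13149 and 12893 on the low-fertile arrays. Without PTPRC it was 1573 and 1642 against 1646 and 1505. Of 6 red cell markers on the array HBB was called higher (1.24), but it was above background on 3 arrays and entered the test only through the low-fertile pair, and none of the 6 epithelial markers tested passed. The part of other cells in the results was not tested, and in pooled RNA fewer cells of a type and less RNA per cell cannot be told apart.

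Some probe sequences are shown first, because several results rest on which stretch of a transcript, or which near-identical sequence, a probe reads. Each has a reading frame without a stop codon, and probes of the same gene share that frame. Coordinates are those of Btau_3.1 in the array annotation, given per probe on the strand named, and a span over 60 bases means that the probe crosses an intron. In the RPS3A and RPS6 pairs, the capitals mark bases at which overlapping probes differ. In the RPS23 probe they mark the 39 bases shared with a probe named LOC513245.
RPS3A, start 621 in the transcript, chr17:7220823-7220882, minus strand: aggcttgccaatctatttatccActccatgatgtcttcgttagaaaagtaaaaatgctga
RPS3A, start 627, chr17:7220817-7220876, minus strand: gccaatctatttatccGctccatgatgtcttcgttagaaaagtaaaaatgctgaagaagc
RPS27A, start 360, chr11:39477698-39477757, plus strand: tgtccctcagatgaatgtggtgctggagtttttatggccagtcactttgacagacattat
RPS6, start 274, chr8:26433735-26433794, plus strand: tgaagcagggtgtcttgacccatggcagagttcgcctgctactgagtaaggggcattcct
RPS6, start 715, chr8:26436478-26436631, plus strand: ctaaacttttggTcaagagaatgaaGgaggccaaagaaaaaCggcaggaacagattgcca
RPS6, start 718, chr8:26436481-26436634, plus strand: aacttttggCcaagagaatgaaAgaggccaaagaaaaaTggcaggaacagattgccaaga
RPS13, start 277, chr15:34160484-34160543, plus strand: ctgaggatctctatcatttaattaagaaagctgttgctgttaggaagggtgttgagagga
RPS23, start 401, chr7:83147589-83147648, plus strand: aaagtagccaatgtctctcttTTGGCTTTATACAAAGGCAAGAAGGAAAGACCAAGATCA
RPS19, start 89, chr18:51093244-51093586, minus strand: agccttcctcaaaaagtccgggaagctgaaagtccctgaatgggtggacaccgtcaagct
RPS19, start 170, chr18:51088300-51093222, minus strand: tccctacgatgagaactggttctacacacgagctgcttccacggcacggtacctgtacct
RPS10, start 50, chr23:8764557-8764616, minus strand: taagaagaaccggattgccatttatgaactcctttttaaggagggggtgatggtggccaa
RPS9, start 274, chr18:63610890-63616289, plus strand: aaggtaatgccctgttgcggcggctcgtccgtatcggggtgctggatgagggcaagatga

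Most small-subunit protein transcripts were lower in the low-fertile than in the high-fertile pools. Each gene was read from its probe with the highest mean signal, and a probe was tested when both high-fertile or both low-fertile arrays had it well above background. By that measure 31 of the 32 genes were tested with limma over all 21033 such probes. At an adjusted p under 0.05, 18 genes were lower, 1 was higher and 12 did not pass. The higher gene, RPS9, entered the test only through its low-fertile arrays. Over all 16549 genes tested the same way, 16.3% were lower and 9.6% higher. The median log2 difference, low-fertile minus high-fertile, was -0.65 over the 32 genes and 0.09 over all genes on the array. The median normalized log2 signal of the 32 genes was 2.91 and 2.97 on the high-fertile arrays and 2.05 and 2.16 on the low-fertile arrays.

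The brightest probe of 29 of the 32 was well above background on all 4 arrays, and among these, refitted with other such probes only, 20 genes were lower and 0 were higher. In that fit, 12.4% of 10588 genes were lower and 21.6% higher, and at an unadjusted p under 0.05 the members again gave 0 higher. Both low-fertile arrays lay below both high-fertile arrays in 25 of 31 genes, against 34.3% of all genes tested, and above them in 1, against 35%. At the level of probes, 91 of the 117 were tested, of which 49 were lower, 2 were higher and 40 did not pass. The background was 17.6% lower and 9.22% higher over all tested probes. Of the 91, 13 passed the filter without low-fertile pool 2, so a lower value there helped to select them.

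**Figure D1:**
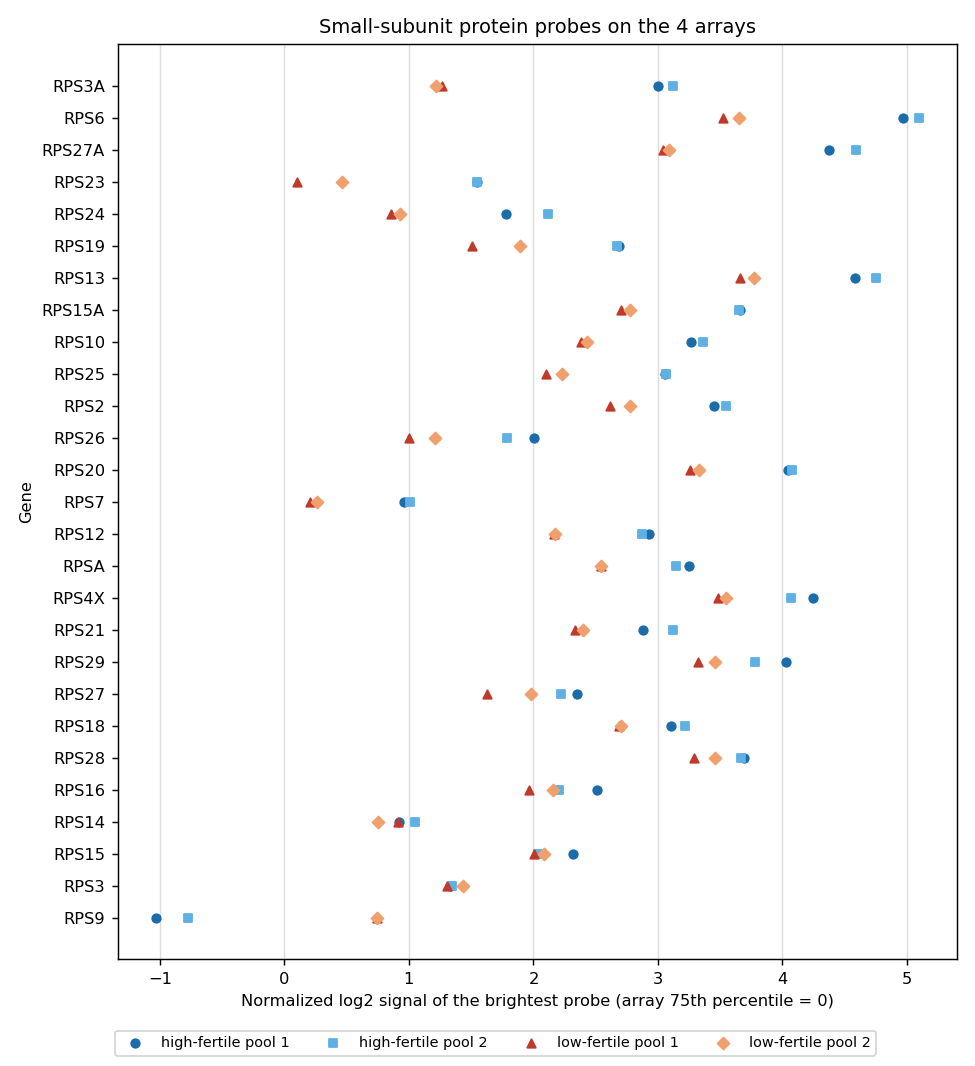
Normalized log2 signal (x axis, 75th percentile of the array at 0) of the brightest probe of 27 of the tested genes (y axis, ordered by difference) on the 4 arrays. The triangles and diamonds of the low-fertile pools lie left of the high-fertile pools in 24 genes and right of them in RPS9. Levels of different probes cannot be compared with each other.

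The largest difference of a tested gene was that of RPS3A, a protein of the body near the exit of the messenger RNA. Its brightest probe, at base 761 of the transcript, read 3.0 and 3.12 on the high-fertile arrays and 1.26 and 1.22 on the low-fertile arrays (normalized log2 signal). Both low-fertile pools were thus more than 1 log2 unit below both high-fertile pools. The difference was -1.82 ± 0.14 (SE, adjusted p = 0.0023), a fold of 3.53. The 5 RPS3A probes gave differences between -1.82 and -1.54, each called lower, but that at 572 was not well above background in low-fertile pool 2 and entered the test only through the high-fertile arrays. The RPS3A probes at 621 and 627 overlap by 54 bases, differ at 1 of them, and gave -1.69 and -1.54. RPS3A was called lower under each of 20 alternatives that called any probe, from -2.19 to -1.35.

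RPS6, the subunit protein phosphorylated by the S6 kinases downstream of growth signalling, followed among the lower genes. Its brightest probe, at base 796, read 4.97 and 5.10 in the high-fertile and 3.53 and 3.65 in the low-fertile pools. The groups did not overlap, and the difference was -1.45 ± 0.15 (adjusted p = 0.00346, 2.73-fold). Among its 7 tested probes, 5 were lower, by -0.65 to -1.45, and the other two did not pass. The RPS6 probe at base 274 read 3.69, 3.47, 3.32 and 3.34 on the arrays of high-fertile pools 1 and 2 and then of the low-fertile pools, a difference of -0.25 ± 0.15 (adjusted p = 0.270).

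The probe at base 718 read 0.79 and 0.75 on the high-fertile arrays, -0.13 for low-fertile pool 1 and 6.0 for low-fertile pool 2. The last spot lay in a bright patch of its array. The probe at 715 covers 57 of the same positions, differs at 3 of them (the capitals above), and read 2.19, 1.85, 1.30 and 1.44, with both low-fertile pools close together below the high-fertile pools. Over all 19 pairs of overlapping member probes in the same transcript (starts at most 20 bases apart), 16 had the same sign, the median gap between their differences was 0.19 and the largest, 2.82, was this RPS6 pair.

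**Figure D2:**
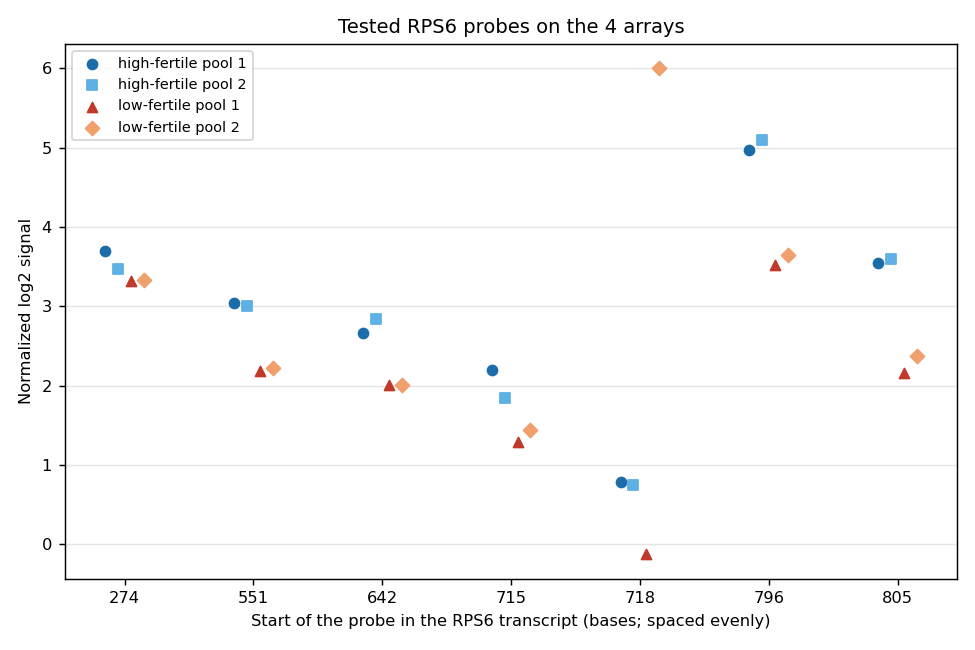
Normalized log2 signal (y axis) of the 7 tested RPS6 probes, ordered by their start in the transcript (x axis, in bases, evenly spaced), on the 4 arrays. Low-fertile pool 2 stands at 6.0 at base 718 and beside low-fertile pool 1 at the other 6 probes.

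RPS27A, made as a fusion of ubiquitin with a head protein, was read by a probe in the ribosomal part of the message. It gave 4.38 and 4.59 in the high-fertile and 3.04 and 3.09 in the low-fertile pools. Both low-fertile values lay below both high-fertile values, by -1.42 ± 0.15 (adjusted p = 0.00381). RPS23, a protein of the decoding centre, read 1.54 and 1.55 against 0.10 and 0.46, a difference of -1.26 ± 0.18 (adjusted p = 0.00699). The groups were again apart, with the low-fertile pools less alike than the high-fertile pools. Because this RPS23 probe shares 39 bases with the LOC513245 probe, which gave a like difference of -1.26, the transcripts behind them are uncertain.

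RPS24 and RPS19 belong to the genes mutated in Diamond-Blackfan anaemia, an inherited failure of red cell production. RPS24 (probe start 474) read 1.78 and 2.12 in the high-fertile and 0.86 and 0.92 in the low-fertile pools. RPS19 (start 448) read 2.69 and 2.67 against 1.51 and 1.89. Neither gene's groups overlapped, and the differences were -1.06 ± 0.17 and -0.98 ± 0.18 (adjusted p = 0.0106 and 0.0148). Of the 9 members on the list of anaemia genes used here, which may be incomplete, 5 were lower (RPS7, RPS10, RPS19, RPS24 and RPS26). None was higher and 4 did not pass, with a median of -0.75. For comparison, 18 of the 31 tested members and 16.3% of all genes were lower.

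RPS13 and RPS15A, both of the body and platform, completed the 8 largest differences among the lower genes. RPS13 (start 431) read 4.58 and 4.75 in the high-fertile and 3.66 and 3.77 in the low-fertile pools. RPS15A (start 374) read 3.66 and 3.65 against 2.70 and 2.77. The groups were apart in both, by -0.95 ± 0.15 and -0.92 ± 0.14 (adjusted p = 0.00999 and 0.00869). The second RPS13 probe, at 277, gave -1.37, but was not well above background in low-fertile pool 2.

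The other 10 lower genes differed by -0.64 to -0.91. From the body and platform these were RPSA, also known as the laminin receptor precursor (-0.65), RPS2 (-0.80), the X-linked RPS4X (-0.64), RPS7 (-0.75), RPS21 (-0.64) and RPS26 (-0.79). From the head they were RPS10 (-0.91), RPS12 (-0.73), RPS20 (-0.77) and RPS25 (-0.90). All probes tested were lower for RPS4X (5 of 5), RPS26 (5 of 5), RPS25 (3 of 3), RPS7 and RPS20 (2 of 2 each), although the RPS26 probe at 353 entered only through the high-fertile arrays. By contrast, RPS2 was lower at 2 of 5 tested probes, RPS21 at 1 of 3 and RPSA at 1 of 2. Their other tested probes did not pass, those of RPS2 with -0.35 to -0.27. The RPS12 probes at 286 and 399, on the plus strand of chromosome 9, gave -0.73 and -1.08. The remaining probe with the symbol RPS12 (0.18, adjusted p = 0.387) is placed on the minus strand and was not designed on the RefSeq transcript.

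Of the 14 head proteins, 6 were lower, 0 higher and 8 did not pass, with a median of -0.49. Of the 17 proteins of the body and platform, 12 were lower, 1 was higher and 4 did not pass, with a median of -0.75. Over all genes tested, 16.3% were lower and 9.6% higher. Whether the 2 lobes differ was not tested. Among the 12 genes that did not pass, RPS18 (-0.47), RPS27 (-0.48) and RPS29 (-0.51) had 95% intervals below 0 before adjustment, with adjusted p = 0.0633, 0.104 and 0.0702. For the other 9 the interval spanned 0. RPS3, which lines the entry of the messenger RNA, had a difference of 0.03 and an interval from -0.33 to 0.39. RPS14, RPS15, RPS16 and RPS28 lay between -0.30 and -0.14.

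**Figure D3:**
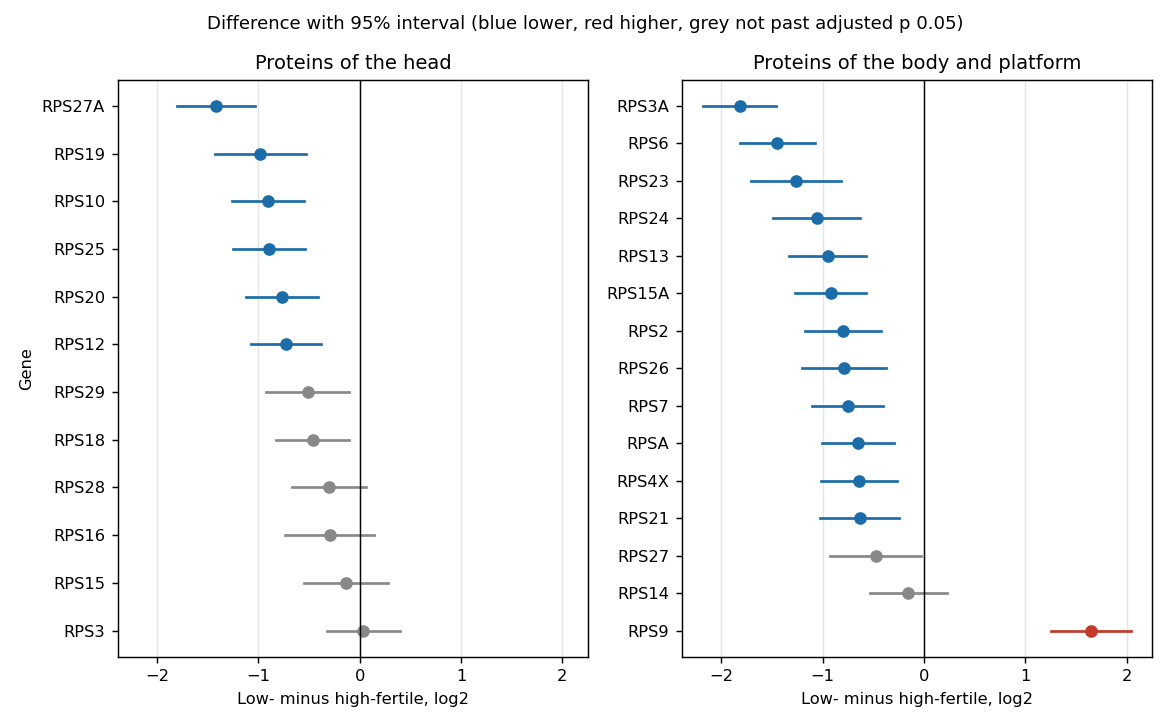
Log2 difference, low-fertile minus high-fertile (x axis), of 27 of the tested genes (y axis) with its 95% interval from limma, for the head (left) and the body and platform (right). Blue genes are lower, the red gene (RPS9) is higher and grey genes do not pass an adjusted p of 0.05.

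RPS9, a body protein that helps to fold the ribosomal RNA, was the only gene called higher. Its probe read -1.03 and -0.78 on the high-fertile arrays and 0.75 and 0.74 on the low-fertile arrays. Both low-fertile pools lay above both high-fertile pools, and the measured difference was 1.65. In high-fertile pool 1 the probe was not well above background, so 1 of the 2 high-fertile arrays measured it. The gene entered the test only through the arrays on which it was higher, and its call is given as a description. With 36 G or C bases of 60, it had more than any other tested member probe except that of RPS28 at base 179, with 42. The second RPS9 probe, at 324, was well above background on 2 arrays, 1 of each group, and was not tested (0.81). With only probes above background on all 4 arrays, RPS9 was not tested.

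RPS10 was the only gene with tested probes called in opposite directions. The probes at 508 and 514 gave -0.69 and -0.91, and that at 50 gave 0.90 ± 0.21 (adjusted p = 0.0303). The probe at 50 read 1.02 and 1.52 in the high-fertile and 2.10 and 2.24 in the low-fertile pools. At 514 the pools read 3.26, 3.36, 2.38 and 2.43. The groups were apart at both places, in opposite order.

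Differences also varied between probes along a transcript. For 15 transcripts with tested probes at least 100 bases apart, the probe nearest the 3′ end had the lower difference in 11, or 73.3%, against 58.1% of 2195 other transcripts. The median difference of the 15 was -0.40 at the 5′ probe and -0.91 at the 3′ probe. Beside RPS10, the widest gaps were those of RPS6 (-0.25 at 274 and -1.31 at 805), RPS3 (0.49 at 242 and -0.52 at 774) and RPS19 (0.18 at 89 and -0.79 at 454). The RPS3 probe at 774 was not well above background in low-fertile pool 2 and entered the test only through the high-fertile arrays. The same held for other probes of these pairs, RPS13 at 277, RPS24 at 321, RPS26 at 353 and RPS3A at 572 among them. With probes above background on all 4 arrays only, the 3′ probe was lower in 11 of 12, or 91.7%, against 58.6% of 949 others. In 10 of these 12 it also had fewer G and C bases. The array annotation places the RPS19 probe at 454 on chromosome 9 and the other RPS19 probes on chromosome 18, where that at 448 gave -0.98. It places the RPS27 probe at 177 on chromosome 6 and the other RPS27 probes on chromosome 3. Without these pairs, the 3′ probe was lower in 10 of 13, or 76.9%, against 57.4% of 2039 other transcripts whose probes lie on 1 chromosome and strand. The order was the other way in 4 transcripts, RPS13, RPS27 and RPS3A among them, RPS3A by 0.034. The 3′ probe had fewer G and C bases in 12 of the 15, so position and base composition move together here. Where the 3′ probe was not lower in GC content, it had the lower difference in 1 of 3 member transcripts and in 46.1% of 968 others. Genes were also read from the tested RefSeq probe nearest the 5′ end, an alternative chosen after seeing the data. By it 13 genes were lower and 2 higher, with a median of -0.47. The background was 16.1% lower and 8.67% higher of 7416 genes read that way. Read from the 3′-most tested RefSeq probe, 17 were lower and 1 higher, with a median of -0.78, against 19.7% and 8.58%. Probes not designed on a RefSeq transcript, such as those of RPSA at 924 and RPS28 at 281, did not enter these readings.

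**Figure D4:**
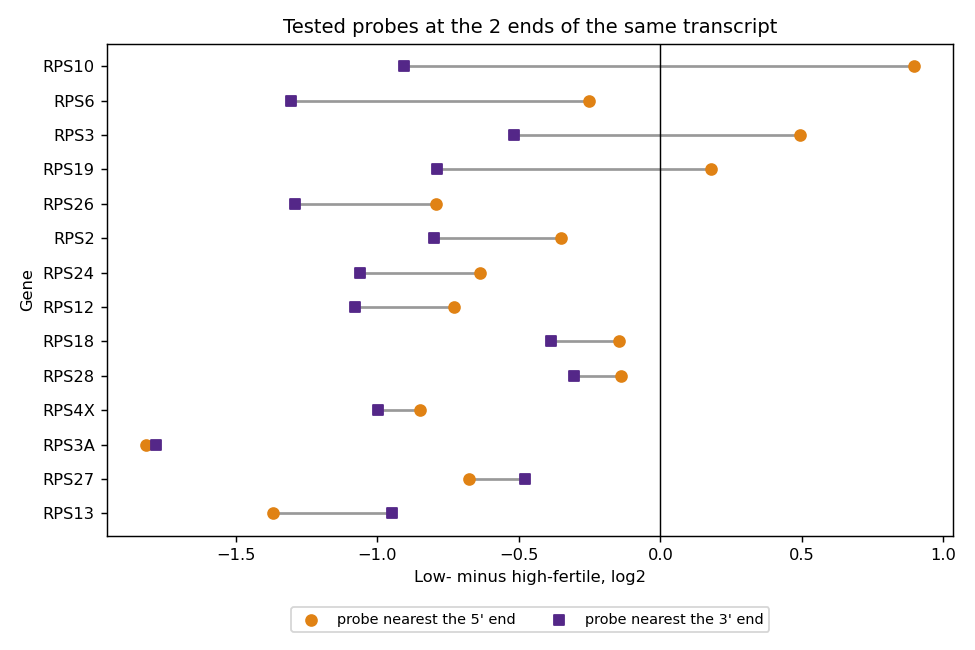
Log2 difference, low-fertile minus high-fertile (x axis), at the tested probe nearest the 5′ end (circles) and the 3′ end (squares) of 14 transcripts (y axis). The square lies left of the circle in 11 transcripts, and the circle of RPS10 lies at 0.90. In RPS19 and RPS27 the ends are placed on different chromosomes.

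Base composition of the probes moved with the differences, in the members and on the whole array. Across the 91 tested member probes the Pearson correlation of GC content with the difference was 0.43 (Spearman 0.54), and across the other 20942 it was 0.44, where probes of the same 4 arrays are no independent replicates. For probes with up to 22 G or C bases the median was -0.82 in 20 member probes and -0.83 in 1967 others. With 23 to 26 it was -0.75 in 28 against -0.34, with 27 it was -0.38 in 28 against -0.09, and with more it was -0.25 in 15 against 0.22. Restricted to probes well above background on all 4 arrays, the lowest class gave -0.89 in 16 members against -0.29 in 703 others, and the highest gave -0.30 in 12 against 0.26 in 6627. Of all 91 tested member probes, 65 lay below the median of other tested probes with the same GC count. Of the 76 above background on all 4 arrays with others of that kind to set them against, 70 lay below the median of those others.

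After subtraction, on each array, of the median deviation of tested probes with the same GC content from their mean over the arrays, 10 genes were lower and 1 (RPS9) higher, and the median fell in size to -0.31. In that fit 11.2% of all 16549 genes were lower and 8.69% higher. The 10 were RPS2, RPS3A, RPS6, RPS10, RPS12, RPS13, RPS20, RPS21, RPS25 and RPS27A. The calls of RPSA, RPS4X, RPS7, RPS15A, RPS19, RPS23, RPS24 and RPS26 were lost. The subtracted medians were set over all tested probes, dim ones included. At 21 G or C bases, for example, the median difference of other tested probes was -0.87. For those above background on all 4 arrays it was -0.29. Whether the correction removes too much from bright probes was not tested. Among the lost calls, RPS24 moved from -1.06 to -0.21 (adjusted p = 0.426) and RPSA from -0.65 to -0.17 (0.392). RPS7 moved from -0.75 to -0.27 (adjusted p = 0.205) and RPS15A from -0.92 to -0.34 (0.128). RPS19 moved to -0.64 (adjusted p = 0.0638), RPS23 to -0.69 (0.0537), RPS26 to -0.57 (0.0612) and RPS4X to -0.42 (0.0947). RPS3A kept -1.73 and RPS27A -1.20, while RPS6 moved to -0.69. The part of GC content in the group difference was not tested further.

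**Figure D5:**
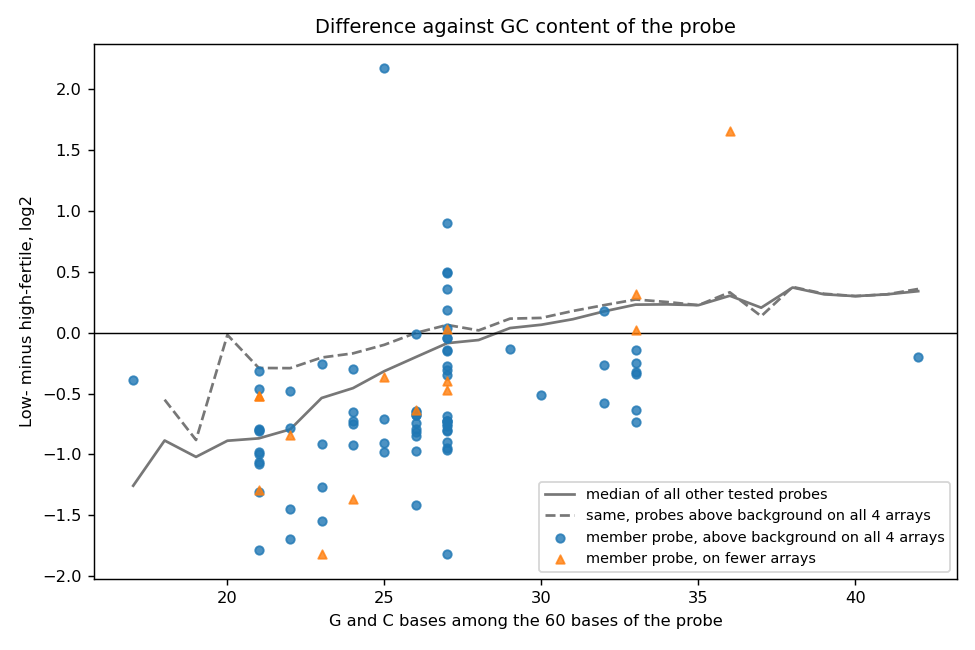
Log2 difference, low-fertile minus high-fertile (y axis), of the 91 tested member probes against G and C bases among 60 (x axis). Lines give the median of all other tested probes at each GC count, solid for all and dashed for those above background on all 4 arrays, with 65 of 91 member probes below the solid line and 70 of 76 member probes above background on all 4 arrays below the dashed line.

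Fewer genes were called with a pool left out, in the members and over the whole array, while the median over the members stayed between -0.71 and -0.63. With low-fertile pool 2 left out, the array with few probes above background, 14 genes were lower and the median was -0.70, against 13.2% lower of all genes. Leaving out low-fertile pool 1 also gave 14 (15.7% of all genes). Without high-fertile pool 1 the count was 8 (9.49% of all genes) and without high-fertile pool 2 it was 4 (8.97%), in fits where the lone high-fertile pool is assumed to vary like the low-fertile ones. RPS3A, RPS6, RPS23 and RPS27A were called lower with each pool left out in turn. RPSA, RPS4X and RPS21 were called in none of these fits, and ran from -0.70 to -0.60, from -0.73 to -0.55 and from -0.75 to -0.52. RPS12 and RPS26 were each called in 1. RPS2 and RPS20, each called in 2 of the 4, ran from -0.88 to -0.72 and from -0.80 to -0.73.

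Probes that were not tested were mostly dim. RPS27L had 3 probes, none well above background on any array, and gave no result. Of 15 probes designed on expressed sequence tags, 13 were well above background on no array and 0 were tested, whereas 91 of the other 102 were. In all, 22 member probes were above background nowhere. A run of 30 or more bases was shared with a probe of another name by 8 member probes, of RPS4X, RPS10, RPS12, RPS15A and RPS23. The values at these probes may include RNA of near-identical copies. For RPS10, RPS15A and RPS23 the brightest probe is among them, for RPS4X and RPS12 it is not. Probes of 4 genes, RPS12, RPS19, RPS27 and RPS28, are placed at more than 1 locus or strand, so the RNA behind the probes of RPS19 at 454, RPS27 at 177 (-0.68, adjusted p = 0.0236) and RPS28 at 281 (-0.92, adjusted p = 0.122) is uncertain too.

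Some small-subunit genes have symbols outside the rule. FAU, whose product is a ubiquitin-like protein fused to a body protein, had 4 probes, 3 of them lower. Its brightest probe, at 499, read 3.06 and 3.02 in the high-fertile and 2.32 and 2.41 in the low-fertile pools. The groups were apart by -0.68 ± 0.14 (adjusted p = 0.0221). RPS4Y1, whose symbol is that of a Y-linked counterpart of RPS4X, was lower at both probes. Whether these probes read a Y-linked transcript was not tested. Its probe at 748 read 3.33 and 3.28 against 2.66 and 2.55 (-0.70, adjusted p = 0.0209), and that at 543 (-1.11, adjusted p = 0.0320) shares at least 30 bases with an RPS4X probe. The 2 probes of GNB2L1, which encodes the scaffold protein RACK1 on the head, were not tested. Of 29 further probes described as small-subunit proteins or like them, 13 were tested and 2 were lower, against 17.6% of all probes, with a median of -0.18 over those tested. One of the lower probes, LOC100851189, was above background on the high-fertile arrays only.

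Other genes of the pathway were read in the same fit, in which 16.3% of all genes tested were lower and 9.6% higher. Of 47 large-subunit protein genes, 44 were tested, 25 were lower and 1 (RPL36, 0.93) was higher, with a median of -0.68 over the 47. Of 29 mitochondrial small-subunit genes, 15 were tested, 4 were lower, 2 (MRPS18A and MRPS26) were higher and the median over the 29 was -0.14. Of these 15, 7 entered only through the high-fertile pair, the lower MRPS18B among them. Among 37 assembly factors of the small subunit on the array, 12 were tested and 2 were lower (UTP6, -0.84, and UTP11L, -0.72), a share near that of all genes. UTP11L and 3 others of the 12 entered only through the high-fertile pair. Of 10 S6 kinase family genes, 5 were tested and 2 were higher. RPS6KA1 gave 0.55 ± 0.15 (adjusted p = 0.0447) and RPS6KB2, which phosphorylates RPS6, gave 0.73 ± 0.16 (adjusted p = 0.0273). No test compared these lists with the small-subunit genes.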

How the data were processed

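Sperm RNA of 4 pools was labelled with 1 dye from oligo-dT-primed cDNA and hybridized to a bovine array. The authors extracted the scans with Feature Extraction 11.5.1.1 and shifted log2 processed signals by the 75th percentile of each array in GeneSpring GX. They deposited scanner output, whose intensity values are linear and background-subtracted, with flags of other kinds for each spot, and a table of shifted log2 values. From the scanner intensities, spots flagged as outliers were dropped, replicate spots were averaged as log2 values, and each array was centred on the 75th percentile of its sample probes (Python 3.11.15, pandas 2.3.3, numpy 2.4.6, scipy 1.17.1). Probes that both high-fertile or both low-fertile arrays had well above background entered a linear model in limma 3.58.1 (R 4.3.3), with Benjamini-Hochberg adjustment over all 21033. The fit was tested on simulated data.

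The members and the gene lists were chosen with earlier results of these data known. Every member is counted by its brightest probe, and 4 members that did not pass the test are not reported here by name. Pool values are given for the 8 lower and up to 4 higher members with the largest difference past an adjusted p of 0.05, above background on all 4 arrays and with groups apart, for those called against the majority or in both directions, and for FAU and RPS4Y1. RPS9 is above background on 3 arrays and enters as called against the majority. Printed probes are from these members. Alternatives covered scaling, background, filters, GC content, the deposited table, the test, the reading of a gene and each pool left out.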

Additional observations from a re-analysis of the deposited data

How the results depend on the processing

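The counts of 18 lower and 1 higher genes, 49 lower and 2 higher probes and 5632 calls among all probes, and the median of -0.65, moved as follows. No probe of the array was called without a filter on dim probes, with the weaker filter on positive and significant spots, or with the methods' t-test after adjustment, so the counts were 0 lower and 0 higher genes and 0 lower and 0 higher probes, and 0 of all. At an unadjusted p under 0.05 these gave 18, 18 and 20 lower member genes and 1 higher each, among 9278 of 51282, 9796 of 40145 and 6084 of 21024 probes in either direction. GC correction gave 10 lower genes, 26 lower probes and a median of -0.31. Spike-in scaling, which moved the median of all tested probes to -0.38, gave 24 lower genes, 1 higher probe, 72 lower probes and a median of -1.02, and 6750 of its 7328 calls were lower against 3692 of 5632. Normexp background correction gave 4 higher probes and a median of -0.51, and the filter for all 4 arrays left 0 higher genes, since RPS9 was not tested, and 1625 lower calls of 4339. Taking a gene as the median of its probes gave 11 lower genes, and the mean over tested probes a median of -0.54. The 5′ RefSeq probe gave 2 higher genes and a median of -0.47, the 3′ RefSeq probe a median of -0.78. With each pool left out in turn, lower genes ranged from 4 to 14, lower probes from 15 to 39, higher probes from 1 to 2, all calls from 2644 to 4989 and the median from -0.71 to -0.63, while higher genes stayed at 1.

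Among the 27 small-subunit genes whose alternatives are given here, the direction turned only in those that had not been called, except that the 5′ probe gave 0.90 for RPS10 and 0.18 for RPS19. RPS3 gave -0.021 with cyclic loess, -0.34 with spike-in scaling, -0.0045 with normexp and -0.52 at the 3′ probe, which entered the test only through the high-fertile arrays. GC correction, set over all tested probes, gave 0.19 for RPS16, 0.39 for RPS18 and 0.28 for RPS27. At their 24, 21 and 22 G or C bases, the median differences of other tested probes were -0.46, -0.87 and -0.79. Over those above background on all 4 arrays, as these 3 probes are, the medians were smaller in size, at -0.17, -0.29 and -0.29. Taking the median of the probes gave 0.30 for RPS14. Leaving out pools gave ranges of -0.030 to 0.099 for RPS3 and -0.28 to 0.0056 for RPS15. The cause of these shifts was not tested.

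Pool numbers do not pair the arrays: over 21024 probes the differences between pools 1 and 2 of the groups correlated at 0.0055. With the pool number as a replicate block, 18 genes were lower, 1 was higher, 48 probes were lower, 2 were higher and 5331 probes of all were called.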
